A study of Mus musculus with 8 samples.

Results

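Gene expression was compared between a pair of mouse cell lines that carry the same homozygous enhancer deletion and were derived as separate clones. The lines are called clone 2 and clone 1, with 2 libraries each among the 8 libraries of the study. The members of the comparison are the 14474 genes, of 46406 entries in the deposited table, whose mean FPKM reached at least 1 over these 4 libraries. FPKM counts sequenced fragments scaled by the length of the gene and the size of the library. Differences are given as clone 2 minus clone 1 on the log2(FPKM + 1) scale, which understates the changes of low genes.

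All cells were anterior neural progenitor cells (AntNPC) made in culture from E14 mouse embryonic stem cells. The stem cells were grown for 3 days in serum-free N2B27 medium with 10 ng/ml bFgf and for another 2 days without it, and the medium held 5 µM of the WNT inhibitor Xav939 from day 2 to day 5. Clone 1 and clone 2 both lack the poised enhancer PE Lhx5(-109) on both alleles. The deletion was made by transfecting pairs of guide RNAs with Cas9, followed by puromycin selection, isolation by serial dilution and genotyping by PCR and Sanger sequencing. Each null line is 1 clone, so any change fixed when a line was derived cannot be told apart from one that the deletion produced in that line. The 4 wild-type (WT) libraries are from E14 cells without the deletion and carry no clone label. The study calls its libraries biological replicates, and nothing in the labels says that they came from separate differentiations. The p-values therefore measure only the spread between these libraries.

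During early development the neural plate acquires regional identities along the head-to-tail axis. Low WNT activity permits rostral identities such as forebrain and eye field, marked by Hesx1, Six3 and Rax. WNT and FGF signals from the boundary of midbrain and hindbrain, the isthmus, support the more caudal identities marked by En1, En2, Pax5 and Gbx2. Before this step, cells of the epiblast express Pou5f1, Nanog and the epithelial cadherin Cdh1, which are replaced by Sox1, Nes and the neural cadherin Cdh2 as the cells become neural. Poised enhancers such as the deleted one are elements bound by Polycomb proteins in stem cells and activated on differentiation.

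The depth of each library is unknown, as counts of reads by library were not analysed here, and the FPKM of a library summed to 518491 to 528726. Across tested protein-coding genes other than histone genes, Pearson's r of log2 values was 0.994 within each clone, 0.958 to 0.972 between the clones and 0.993 to 0.998 among WT libraries, as a description over genes, which are not independent replicates. Over all genes tested, r was 0.938 within clone 1, 0.956 within clone 2, 0.91 to 0.935 between the clones, 0.934 to 0.965 between clone 1 and WT and 0.968 to 0.973 among WT libraries, so that the pair of clone 1 was hardly closer than libraries of the different clones could be. Clone 1 replicate 2 stood apart in RNA that lacks a poly(A) tail: its summed histone FPKM was 260.2, against 116 in clone 1 replicate 1, 67.0 to 82.4 in clone 2 and 88.5 to 105.8 in WT. The labelled cell type was checked against its markers. Sox1, Sox2, Nes, Pax6 and Cdh2 summed to 221 to 245 FPKM in clone 1, 267 to 276 FPKM in clone 2 and 271 to 289.7 FPKM in WT. Markers of neural crest (Sox10, Foxd3, Tfap2a), mesoderm (T, Tbx6, Meox1) and endoderm (Sox17, Foxa2, Gata6) summed to at most 2.17, 1.08 and 0.474 FPKM in any library.

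Lhx5, the LIM homeobox gene that the enhancer is named for (chromosome 5, 120431699 to 120441223, GRCm38), was low in both lines. It stood at 1.24 and 0.854 FPKM in clone 1, 1.9 and 1.26 FPKM in clone 2 and 16.9, 17.5, 16.2 and 15 FPKM in WT. All 4 null libraries lay below every WT library. The clones themselves did not pass the threshold for Lhx5 (log2 difference 0.33, SE 0.14, adjusted p = 0.086 in limma), although clone 2 replicate 1 was the highest null library. The call depended on single libraries: without clone 1 replicate 1 the adjusted p was 0.0482 (log2 difference 0.47), and without clone 2 replicate 2 it was 0.0358 (log2 difference 0.51).

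The clones differed widely. In limma, fitted to all 8 libraries in 3 groups, 5862 of the 14474 genes (40.5%) passed an adjusted p of 0.05, of which 3656 (25.3%) were higher and 2206 (15.2%) lower in clone 2. A log2 difference of at least 1, which is a 2-fold change on the FPKM + 1 scale, was reached by 521 of these (3.6%), with 207 higher (1.43%) and 314 lower (2.17%) in clone 2. For 9887 genes (68.3%) both clone 2 libraries lay on the same side of both clone 1 libraries. With so few libraries, many genes without any difference would also separate this way, so this share is a description. The median difference over all genes tested was 0.05. The 25.3% higher and 15.2% lower over all genes are the background for each list count that follows. With median-of-ratios rescaling of the libraries the called genes were split into 2986 higher and 2958 lower, so 50.2% were higher against 62.4% as deposited, and without clone 1 replicate 1 the split was 4273 and 1732 (71.2% higher). Without clone 2 replicate 2 the number called was 3185, of which 3101 were among the 5862. Of the 521 genes, 463 had a mean over the 4 null libraries within 1.5-fold of the WT mean on the FPKM + 1 scale, so that a comparison of the pooled null libraries with WT leaves most of these differences out of view.

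**Figure D1:**
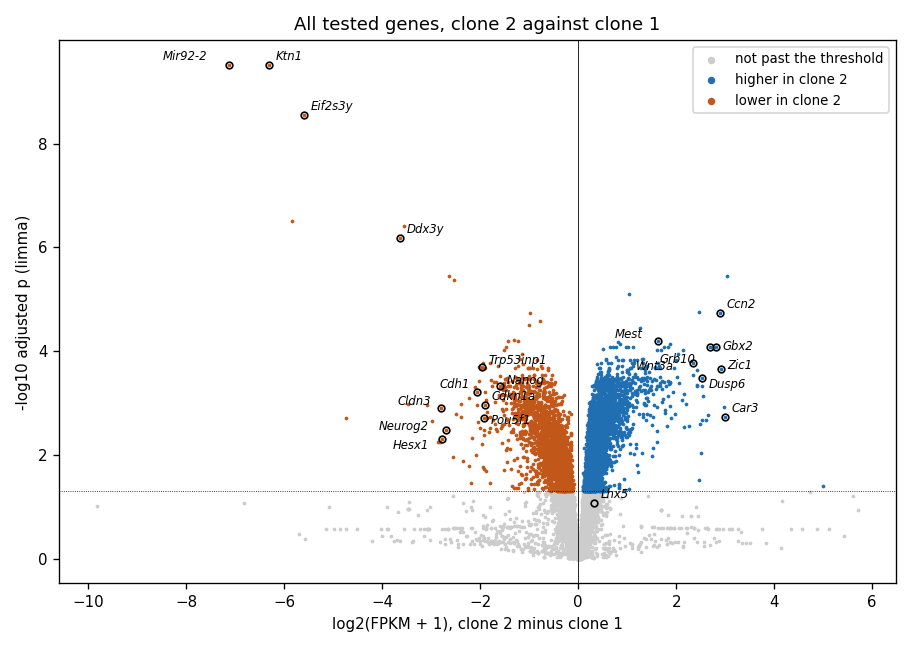
Each point is a gene tested, placed by its log2(FPKM + 1) difference of clone 2 minus clone 1 (x axis) and by -log10 of the adjusted p from limma (y axis), with the dotted line at an adjusted p of 0.05. Blue points are the 3656 genes higher in clone 2, orange points the 2206 lower, grey points did not pass, and circles mark 21 genes described in the text, from Mir92-2, which is listed at 0 in clone 2, on the left to Car3 at 2.99 on the right.

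The 6 marker genes of the lines had been picked for their contrast between these libraries, so their values are a description of it. Hesx1, a homeobox repressor of the rostral neural plate (chromosome 14, 26994416 to 27002329), stood at 36.5 and 30.6 FPKM in clone 1, 6.39 and 2.43 FPKM in clone 2 and 21.7, 36.7, 24.1 and 24 FPKM in WT. Both clone 2 libraries were below every other library, and clone 1 overlapped WT. The Hesx1 mean was 33.5 ± 4.17 FPKM (SD, n = 2) in clone 1 and 4.41 ± 2.8 FPKM (SD, n = 2) in clone 2, 7.61-fold lower (log2 difference -2.77, SE 0.42, adjusted p = 0.00494), and with only the 4 null libraries in the fit the adjusted p was 0.069. Nanog, a transcription factor of pluripotent cells (chromosome 6, 122707489 to 122714633), was at 8.71 and 7.48 FPKM in clone 1, 2.31 and 1.73 FPKM in clone 2 and 4.05, 5.57, 3.42 and 4.51 FPKM in WT. The 3 groups did not overlap, with WT between the clones, and Nanog was 4.01-fold lower in clone 2 (log2 difference -1.59, SE 0.18, adjusted p = 0.000466). Nanog and Pou5f1 have processed pseudogenes elsewhere in the genome, and the assignment of reads shared with them is not known here.

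The other 4 markers were higher in clone 2. Gbx2, a homeobox gene expressed on the hindbrain side of the isthmus (chromosome 1, 89927956 to 89931179), was at 0.176 and 0.158 FPKM in clone 1, 6.28 and 8.18 FPKM in clone 2 and 1.59, 0.938, 1.49 and 1.96 FPKM in WT. It was 43.2-fold higher in clone 2 (log2 difference 2.81, SE 0.19, adjusted p = 8.19e-05), and the WT libraries lay between the clones. Zic1, a zinc-finger factor of the dorsal neural tube (chromosome 9, 91358058 to 91365810), stood at 0.457 and 0.313 FPKM in clone 1, 7.9 and 11.1 FPKM in clone 2 and 2.56, 1.09, 2.07 and 1.92 FPKM in WT, which is 24.7-fold higher in clone 2 (log2 difference 2.91, SE 0.24, adjusted p = 0.00022). Fabp7, a fatty-acid-binding protein of radial glia (chromosome 10, 57784881 to 57788450), stood at 0.931 and 0.683 FPKM in clone 1, 9.18 and 18.8 FPKM in clone 2 and 2.76, 1.3, 2.39 and 1.66 FPKM in WT. The clone 2 libraries lay far apart, but neither overlapped any clone 1 library, and the level was 17.3-fold higher (log2 difference 2.98, SE 0.35, adjusted p = 0.00121). With the library number as a block the adjusted p of Fabp7 was 0.082. Car3, a cytosolic carbonic anhydrase (chromosome 3, 14863512 to 14872523), was at 0.449 and 0.378 FPKM in clone 1, 7.17 and 14.4 FPKM in clone 2 and 2.84, 0.992, 2.34 and 2.41 FPKM in WT, 26.1-fold higher in clone 2 (log2 difference 2.99, SE 0.39, adjusted p = 0.00189). All 4 were below 1 FPKM in both clone 1 libraries and reached the filter through clone 2, so they had to be higher there. The same holds, among genes named in what follows, for Pax3, Pax7, Pax8, Rspo2, Fgf18, Etv4, Msx3 and Dbx1, and in the opposite direction for Dnmt3l, Klf2, Esrp1, Rab25, Rnf43 and the Y-linked genes. The counts of their lists are no independent support for a direction. For Zic1, Fabp7 and Car3, as for Gbx2, WT replicate 2 was the lowest of the WT libraries.

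**Figure D2:**
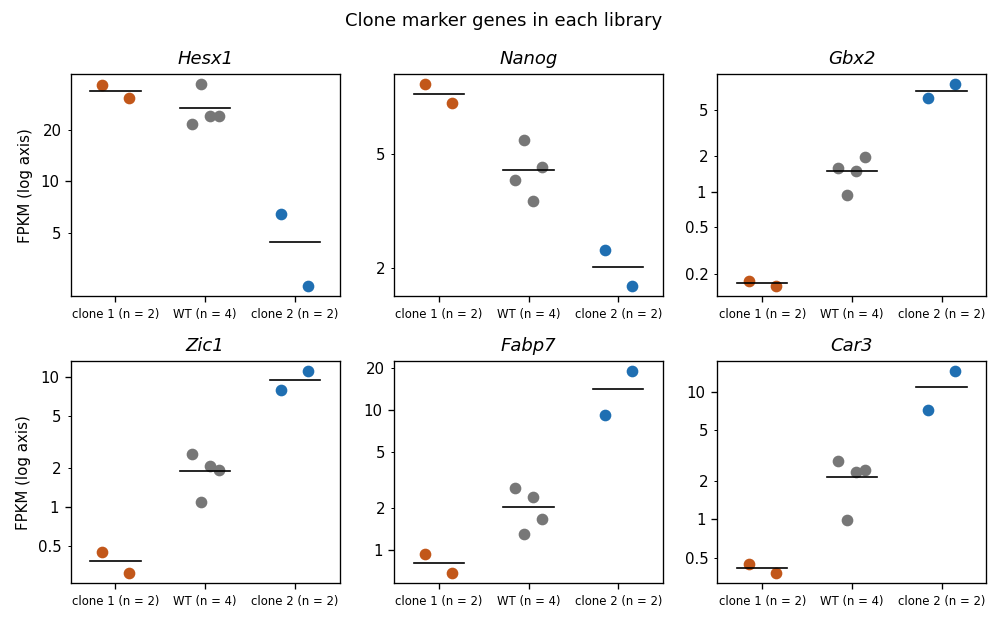
FPKM of the 6 marker genes in each library on log y axes, by group (clone 1, WT, clone 2), where points are single libraries and lines are group means. For Nanog, Gbx2, Zic1, Fabp7 and Car3 the 4 WT points lie between the clones, and for Hesx1 the WT points overlap clone 1.

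Genes of pluripotency and the epiblast were mostly lower in clone 2. Of 17 tested members of a list of 30, 11 were lower, 2 were higher and 4 did not pass, with a median log2 difference of -0.84 against 0.05 over all genes tested, where 15.2% were lower. Pou5f1, which encodes Oct4, stood at 52.4 and 48.5 FPKM in clone 1, 14.3 and 10.9 FPKM in clone 2 and 18.8, 30.4, 18.7 and 22.5 FPKM in WT. Clone 1 was above every WT library and clone 2 below every one, and the level was 4.0-fold lower in clone 2 (log2 difference -1.93, SE 0.25, adjusted p = 0.00192). Dnmt3b, the DNA methyltransferase of the epiblast, stood at 117 and 104 FPKM in clone 1, 60.5 and 55.1 FPKM in clone 2 and 70.5 to 81.1 FPKM in WT (log2 difference -0.92, adjusted p = 0.000206). Its cofactor gene Dnmt3l was at 2.34 and 1.93 FPKM in clone 1, 0.465 and 0.495 FPKM in clone 2 and 1.06 to 1.59 FPKM in WT (log2 difference -1.08, adjusted p = 0.000767). Fgf5, a ligand of the primed epiblast, was also lower (log2 difference -1.29, adjusted p = 0.00193), as were Dppa4 (-1.01), Dppa5a (-1.28) and Klf2 (-0.84). The 2 that were higher, Sox3 (0.21) and Lin28b (0.28), are also expressed in neural progenitors, and neither passed with only the 4 null libraries in the fit or without clone 2 replicate 2. Nanog, Pou5f1, Zfp42 and Dppa4 together summed to 62.8 to 69.1 FPKM in clone 1, 15.3 to 20.3 FPKM in clone 2 and 25.7 to 40.3 FPKM in WT. These are bulk libraries, in which fewer cells of a type and less RNA per cell cannot be told apart.

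Epithelial junction genes had the most negative median of the cell-state lists described here. Of 15 tested members of a list of 20, 11 were lower in clone 2, 8 of them with a log2 difference of at least 1 in size, 1 was higher and 3 did not pass, with a median of -1.04. Cldn3, a tight-junction claudin, stood at 15.8 and 14.2 FPKM in clone 1, 1.44 and 1.17 FPKM in clone 2 and 2.56, 5.6, 2.11 and 2.8 FPKM in WT. Every clone 2 library was below every WT library and every clone 1 library above, and Cldn3 was 11.5-fold lower in clone 2 (log2 difference -2.80, SE 0.33, adjusted p = 0.00126). Cdh1, epithelial cadherin, was at 24.6 and 19.8 FPKM in clone 1, 5.04 and 3.96 FPKM in clone 2 and 6.39, 9.9, 5.87 and 7.4 FPKM in WT (4.93-fold lower, log2 difference -2.07, SE 0.22, adjusted p = 0.0006). Cdh1 had the same order of groups, without overlap. Esrp1, an epithelial splicing regulator, stood at 6.75 and 4.57 FPKM in clone 1, 0.557 and 0.567 FPKM in clone 2 and 1.05 to 2.67 FPKM in WT (log2 difference -2.07, adjusted p = 0.00107). The claudin Cldn7 (log2 difference -2.03, adjusted p = 0.000378), the adhesion molecule Epcam (log2 difference -1.80, adjusted p = 0.00189), the vesicle GTPase Rab25 (log2 difference -1.48, adjusted p = 0.00102) and Cldn6 (log2 difference -1.28, adjusted p = 0.00104) were lower as well. The protease inhibitor gene Spint2 was at 32 and 31.9 FPKM in clone 1, 16.5 and 13.7 FPKM in clone 2 and 16.8 to 22.1 FPKM in WT (log2 difference -1.04, adjusted p = 0.000604). The calls of Ocln and Spint1, also counted as lower, rested on single libraries. Ocln (log2 difference -0.74) lost its call without WT replicate 1, 2 or 3 (adjusted p = 0.0545 to 0.0679). With only the 4 null libraries in the fit its adjusted p was 0.0791. Without clone 1 replicate 1 its log2 difference was -0.41. That of Spint1 was -0.27 without clone 2 replicate 2 and -0.44 without clone 1 replicate 2. Keratin genes gave no call: Krt8 stood at 9.33 and 8.95 FPKM in clone 1, 10.2 and 7.77 FPKM in clone 2 and 6.16 to 8.42 FPKM in WT (adjusted p = 0.865), and Krt18 had an adjusted p of 0.106. Lsr, a receptor at tricellular junctions, was higher (log2 difference 0.29, adjusted p = 0.00629), a call lost without clone 2 replicate 2.

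Because these genes moved together, their promoters were read from the RefSeq windows of GRCm38.p6, which run from 250 bases before to 50 bases after each start. The letters CACCTG were searched on both strands, where the opposite strand reads CAGGTG. They contain the core of the E-box that the zinc-finger repressors Snai1 and Zeb1 bind. Windows of 4 of the lower genes follow, 5′ to 3′ on the strand of the gene, with matches on either strand in capitals. They lie at chr5:134985964-134986263 (plus strand), chr17:87635729-87636028 (plus), chr17:23679115-23679414 (plus) and chr3:88548230-88548529 (minus).
Cldn3: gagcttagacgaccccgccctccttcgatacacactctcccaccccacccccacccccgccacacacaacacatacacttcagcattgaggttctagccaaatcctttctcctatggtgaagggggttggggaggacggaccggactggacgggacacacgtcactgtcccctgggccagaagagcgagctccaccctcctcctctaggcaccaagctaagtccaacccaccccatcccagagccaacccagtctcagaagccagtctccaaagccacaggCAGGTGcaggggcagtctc
Epcam: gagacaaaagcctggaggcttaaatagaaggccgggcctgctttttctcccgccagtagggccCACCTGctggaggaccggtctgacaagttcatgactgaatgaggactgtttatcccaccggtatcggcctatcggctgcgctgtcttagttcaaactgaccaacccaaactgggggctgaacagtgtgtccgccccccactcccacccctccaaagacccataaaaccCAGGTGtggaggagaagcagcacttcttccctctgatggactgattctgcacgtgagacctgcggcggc
Cldn6: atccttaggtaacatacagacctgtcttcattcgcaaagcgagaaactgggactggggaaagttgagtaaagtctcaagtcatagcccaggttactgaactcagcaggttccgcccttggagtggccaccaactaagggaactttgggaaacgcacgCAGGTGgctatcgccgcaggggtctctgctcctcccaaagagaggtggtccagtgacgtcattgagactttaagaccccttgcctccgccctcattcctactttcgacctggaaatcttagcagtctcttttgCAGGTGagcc
Rab25: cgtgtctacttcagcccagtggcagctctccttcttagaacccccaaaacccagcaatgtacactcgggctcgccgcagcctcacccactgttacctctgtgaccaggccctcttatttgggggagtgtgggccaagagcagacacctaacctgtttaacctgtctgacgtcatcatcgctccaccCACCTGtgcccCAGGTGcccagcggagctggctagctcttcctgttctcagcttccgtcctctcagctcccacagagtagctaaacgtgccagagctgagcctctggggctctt

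A match stood in 12 of the 13 epithelial junction genes with a window (92.3%), against 1950 of 9587 tested genes with a window (20.3%). It was in 8 of 9 such genes lower in clone 2 and in all 4 that were not lower, so its presence did not separate the members by their difference. The gene without a match was Spint1, whose call as lower, like that of Ocln, rested on single libraries. Over all genes that were lower in clone 2 with a log2 difference of at least 1 in size, 58 of 200 windows held it (29%), and over those higher by at least 1, 24 of 138 (17.4%). A match is a description of the letters and not evidence of binding. Among the factors of this E-box, Zeb1 had a log2 difference of 0.46 (adjusted p = 0.00444), Zeb2 one of -0.29 (adjusted p = 0.0607) and Snai1 one of -0.26 (adjusted p = 0.122).

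Genes of the rostral neural plate and eye field leaned lower in clone 2. Of 13 tested members of a list of 17, 8 were lower, 2 higher and 3 did not pass, with a median of -0.69. Without clone 1 replicate 2 or clone 2 replicate 2, 1 was higher. Six3, a homeobox gene of forebrain and eye that restrains WNT genes, stood at 17.4 and 14.1 FPKM in clone 1, 8.76 and 3.86 FPKM in clone 2 and 13.2, 21.9, 15 and 14.1 FPKM in WT (log2 difference -1.27, adjusted p = 0.0439). Clone 1 overlapped WT and both clone 2 libraries were below all the others. Pax6, a paired-box gene of forebrain, eye and spinal cord, stood at 32.1 and 30.3 FPKM in clone 1, 17.8 and 11.1 FPKM in clone 2 and 38.8, 39.7, 39.8 and 36.2 FPKM in WT (log2 difference -1.09, adjusted p = 0.0034). Every null library of Pax6 was below every WT library. Rax, an eye-field homeobox gene, was at 3.1 and 3.91 FPKM in clone 1, 2.15 and 0.668 FPKM in clone 2 and 6.1, 8.54, 7.78 and 6.29 FPKM in WT (log2 difference -0.97, adjusted p = 0.0355). The forebrain zinc-finger gene Fezf1 stood at 30.8 and 32.1 FPKM in clone 1, 23.9 and 15.9 FPKM in clone 2 and 35.2 to 36.8 FPKM in WT (log2 difference -0.66, adjusted p = 0.0105), and its relative Fezf2 at 14.4 and 13.8 FPKM in clone 1, 12 and 5.73 FPKM in clone 2 and 23.2 to 29.8 FPKM in WT (adjusted p = 0.115). Rax, Fezf1 and Pax6 thus had WT above both clones, unlike Hesx1. Foxd4, a forkhead gene of early neural ectoderm outside that list, stood at 42.4 and 37.3 FPKM in clone 1, 7.89 and 2.7 FPKM in clone 2 and 24.2, 35.6, 24.8 and 22.6 FPKM in WT (log2 difference -2.83, SE 0.44, adjusted p = 0.00568), and with only the 4 null libraries its adjusted p was 0.092. Mab21l2, an eye-field gene also active in the midbrain, was higher (log2 difference 1.15, adjusted p = 0.000279).

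The count of 8 lower rostral genes rested on single libraries. Six3 lost its call without either clone 1 library (adjusted p = 0.133 and 0.0899), without clone 2 replicate 2 (0.118) and without 3 of the WT libraries (0.0679 to 0.0767). Rax lost its call without the same libraries (0.0521 to 0.141), and Fezf1 without clone 1 replicate 2 (0.0584). The count was 5 without clone 1 replicate 1, 4 without clone 1 replicate 2, 4 without clone 2 replicate 2 and 2 with only the 4 null libraries in the fit, and the blocked fit gave 5. Clone 2 replicate 2 was the lower of its pair for Hesx1, Six3, Rax and Pax6. Telencephalic genes were a separate list: of 11 tested members of 18, 5 were higher, 1 lower and 5 did not pass, with a median of 0.33. Without clone 1 replicate 2 there were 2 higher in place of 5, with Gsx2 (adjusted p = 0.0508) and Dmrt3 (0.117) among those lost, and without clone 2 replicate 1 there were 3 lower in place of 1. Sp8, a zinc-finger gene of the anterior and isthmic neural tissue, was at 12.5 and 12.5 FPKM in clone 1, 23.8 and 25.6 FPKM in clone 2 and 16.5 to 22.2 FPKM in WT (log2 difference 0.93, adjusted p = 0.00083). Emx2, of the dorsal telencephalon, was lower (log2 difference -0.76, adjusted p = 0.0194), with an adjusted p of 0.08 without clone 1 replicate 1 and 0.091 without clone 2 replicate 2.

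Genes of the midbrain and isthmus had the highest median of the regional lists. All 16 tested members of 19 passed, 14 higher and 2 lower in clone 2, with a median of 1.19, against 25.3% of all genes being higher. En1, the homeobox gene of the midbrain-hindbrain region, stood at 18.6 and 20.5 FPKM in clone 1, 62.6 and 73.7 FPKM in clone 2 and 34.8, 25.6, 32.9 and 35.9 FPKM in WT (3.49-fold higher, log2 difference 1.75, SE 0.16, adjusted p = 0.000385). The WT libraries lay between the clones. Its relative En2 was at 0.910 and 1.22 FPKM in clone 1, 2.75 and 3.54 FPKM in clone 2 and 1.02 to 1.51 FPKM in WT (log2 difference 1.00, adjusted p = 0.00125). The paired-box genes were higher too, with Pax7 at 0.497 and 0.559 FPKM in clone 1, 2.62 and 3.3 FPKM in clone 2 and 0.773 to 1.05 FPKM in WT (log2 difference 1.37, adjusted p = 0.000267). Pax5 stood at 3.35 and 2.12 FPKM in clone 1, 7.06 and 12.5 FPKM in clone 2 and 3.26 to 5.87 FPKM in WT (log2 difference 1.5, adjusted p = 0.0106), and Pax3 (0.80), Pax8 (0.90) and Pax2 (0.23) had smaller differences. Dmbx1, a homeobox gene of the midbrain, was at 1.19 and 1.67 FPKM in clone 1, 5.52 and 5.88 FPKM in clone 2 and 2.76 to 3.94 FPKM in WT (log2 difference 1.47, adjusted p = 0.000326). Otx2, which marks forebrain and midbrain up to the isthmus, was 1 of the 2 lower genes, at 222 and 199 FPKM in clone 1, 173 and 159 FPKM in clone 2 and 196 to 220.1 FPKM in WT (log2 difference -0.34, adjusted p = 0.00591), and the other was Barhl1 (log2 difference -1.45, adjusted p = 0.0137). Without clone 1 replicate 2 the adjusted p was 0.0504 for Pax5 and 0.0649 for Barhl1, and without clone 2 replicate 2 it was 0.0504 for Otx2. The call of Pax2 was lost without any 1 of 6 libraries and with median-of-ratios rescaling (0.136).

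Hindbrain genes were mostly near absence apart from Gbx2 and the Irx genes. Only 7 of 22 listed genes reached the filter, of which 6 were higher, 0 lower and 1 did not pass, with a median of 0.67. Gbx2 was among those that reached it through clone 2. Irx1, Irx2, Irx3 and Irx5, homeobox genes of caudal neural tissue, were all higher, with Irx1 at 3.51 and 4.17 FPKM in clone 1, 8.33 and 11.5 FPKM in clone 2 and 4.87 to 5.91 FPKM in WT (log2 difference 1.16, adjusted p = 0.000653) and Irx2 at 12.2 and 11.9 FPKM in clone 1, 20.5 and 29.8 FPKM in clone 2 and 13.3 to 15.5 FPKM in WT (log2 difference 0.98, adjusted p = 0.00152). Irx3 had an adjusted p of 0.0612 without clone 2 replicate 2. The segmental hindbrain genes Egr2, Hoxb1 and Hoxa2 were below 0.4 FPKM in every library.

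WNT genes were read as ligands and receptors, antagonists and targets. Among ligands and receptors, 24 of 30 were tested, of which 11 were higher, 2 lower and 11 did not pass, with a median of 0.35. Wnt1, the ligand of the isthmus and dorsal midbrain, stood at 43.4 and 50.9 FPKM in clone 1, 165 and 177 FPKM in clone 2 and 104, 85, 101 and 102 FPKM in WT. The groups did not overlap, with WT in the middle, and Wnt1 was 3.63-fold higher in clone 2 (log2 difference 1.84, SE 0.11, adjusted p = 8.19e-05). Wnt3a, a ligand of the dorsal midline, was at 1.15 and 1.34 FPKM in clone 1, 11.1 and 9.63 FPKM in clone 2 and 3.89, 2.32, 3.79 and 3.92 FPKM in WT (8.31-fold higher, log2 difference 2.34, SE 0.19, adjusted p = 0.000167). Rspo2, a secreted enhancer of WNT signalling, stood at 0.243 and 0.356 FPKM in clone 1, 5.13 and 8.43 FPKM in clone 2 and 0.569 to 1.91 FPKM in WT (22.6-fold higher, adjusted p = 0.000717). The non-canonical ligand Wnt5a (log2 difference 1.88, adjusted p = 0.000418) and Wnt7b (log2 difference 1.44, adjusted p = 0.000563) were higher too. The receptor genes went both ways: Fzd10 stood at 1.51 and 1.84 FPKM in clone 1, 11.6 and 15.4 FPKM in clone 2 and 4.7, 2.7, 3.97 and 4.31 FPKM in WT (log2 difference 2.43, adjusted p = 0.000229). Fzd5, a receptor of the eye field, stood at 28.5 and 21.2 FPKM in clone 1, 6.7 and 3.21 FPKM in clone 2 and 12.1, 18.6, 12.5 and 12.8 FPKM in WT (log2 difference -2.17, adjusted p = 0.00472). The other lower gene, the co-receptor gene Lrp5 (log2 difference -0.19, adjusted p = 0.0348), lost its call without any 1 of 6 libraries (adjusted p = 0.052 to 0.132).

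Of 8 tested WNT antagonists among 15, 4 were lower, 1 higher and 3 did not pass, with a median of -0.24, and without clone 1 replicate 1 there were 2 lower. Shisa2, which holds FGF and WNT receptors back in the cell, stood at 158 and 146 FPKM in clone 1, 85.7 and 48.3 FPKM in clone 2 and 117 to 156 FPKM in WT (log2 difference -1.22, adjusted p = 0.0202), with an adjusted p of 0.0657 or 0.0607 when either clone 1 library was left out. Sfrp5, a secreted WNT-binding protein, was at 6.54 and 5.57 FPKM in clone 1, 2.54 and 1.95 FPKM in clone 2 and 4.19 to 5.45 FPKM in WT (log2 difference -1.12, adjusted p = 0.000562), while Sfrp1 at 53.7 and 48 FPKM in clone 1, 57 and 49.6 FPKM in clone 2 and 68.4 to 73.7 FPKM in WT did not pass (adjusted p = 0.516). Apcdd1, an antagonist that is itself a WNT target, was higher in clone 2 at 29 and 28.1 FPKM in clone 1, 40.5 and 46.3 FPKM in clone 2 and 22.5 to 23.7 FPKM in WT (log2 difference 0.58, adjusted p = 0.0005). Of 13 tested WNT target genes among 18, 9 were higher, 1 lower and 3 did not pass, with a median of 0.64. Axin2, the general feedback target, stood at 34.4 and 32.1 FPKM in clone 1, 53.4 and 57.7 FPKM in clone 2 and 42.4, 36.3, 41.6 and 41.5 FPKM in WT (log2 difference 0.72, SE 0.08, adjusted p = 0.000454). Sp5 (log2 difference 1.37, adjusted p = 0.000651), Nkd1 (log2 difference 1.06, adjusted p = 0.000457) and Tnfrsf19 (log2 difference 1.04, adjusted p = 0.000418) were higher too. Lef1 (log2 difference 0.03, adjusted p = 0.926) and Tcf7 (log2 difference -0.17, adjusted p = 0.111), which encode the nuclear partners of beta-catenin, did not pass. Rnf43, a target that removes WNT receptors from the surface, was lower (log2 difference -0.64, adjusted p = 0.00493), and with median-of-ratios rescaling 3 targets were lower rather than 1, with quantile normalization 2 and without clone 1 replicate 2 also 2. All of these cells were cultured with the same WNT inhibitor.

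FGF ligand genes went both ways. Of 6 tested ligand genes among 12, 2 were higher, 2 lower and 2 did not pass. Fgf8, the ligand of the isthmus, stood at 1.1 and 1.57 FPKM in clone 1, 6.98 and 12.5 FPKM in clone 2 and 3.08, 1.29, 2.63 and 2.37 FPKM in WT (7.29-fold higher, log2 difference 2.16, SE 0.33, adjusted p = 0.00284). Clone 1 overlapped the lowest WT library and clone 2 was above all WT libraries. Fgf18 was at 0.226 and 0.0810 FPKM in clone 1, 1.69 and 2.58 FPKM in clone 2 and 0.267 to 0.640 FPKM in WT (log2 difference 1.43, adjusted p = 0.0006). Fgf5 and Fgf11, the latter at 4.27 and 3.77 FPKM in clone 1, 1.4 and 1.26 FPKM in clone 2 and 2.08 to 3.03 FPKM in WT, were lower.

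Genes induced by FGF through the ERK pathway, many of which feed back on it, all passed: of 17 tested among 18, 14 were higher and 3 lower, with a median of 0.92. Dusp6, the phosphatase that inactivates ERK, stood at 1.46 and 1.2 FPKM in clone 1, 9.82 and 15.7 FPKM in clone 2 and 4.05, 2.41, 3.41 and 3.52 FPKM in WT (9.61-fold higher, log2 difference 2.53, SE 0.23, adjusted p = 0.000335). The WT libraries were all between the clones. Etv5, an ETS transcription factor, was at 1.09 and 0.807 FPKM in clone 1, 7.93 and 14.7 FPKM in clone 2 and 2.83, 0.986, 1.96 and 2.13 FPKM in WT (log2 difference 2.61, adjusted p = 0.00213), and its relative Etv4 at 0.196 and 0.236 FPKM in clone 1, 1.82 and 2.73 FPKM in clone 2 and 0.234 to 0.778 FPKM in WT (log2 difference 1.42, adjusted p = 0.000914). The feedback inhibitor genes Spry2 (log2 difference 2.11, adjusted p = 0.000855) and Spred3 (log2 difference 2.21, adjusted p = 0.00103) were higher, as was Il17rd, an inhibitor at the receptor, at 2.76 and 2.27 FPKM in clone 1, 13 and 26.2 FPKM in clone 2 and 2.77 to 5.15 FPKM in WT (log2 difference 2.48, adjusted p = 0.00248). With the library number as a block the adjusted p of Il17rd was 0.14. The 3 lower members were Phlda3 (-1.86), which is also a p53 target, Fgfbp3 (-0.64) and Egr1 (-0.48), and without clone 1 replicate 1 there was 1. Egr1 lost its call without any 1 of 4 libraries (adjusted p = 0.0516 to 0.197), and Fgfbp3 also without clone 1 replicate 2 (0.0517) or clone 2 replicate 2 (0.0983). In clone 2, replicate 2 had the higher level of Fgf8, Dusp6, Etv5, Etv4, Spry2, Spred3 and Il17rd.

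**Figure D3:**
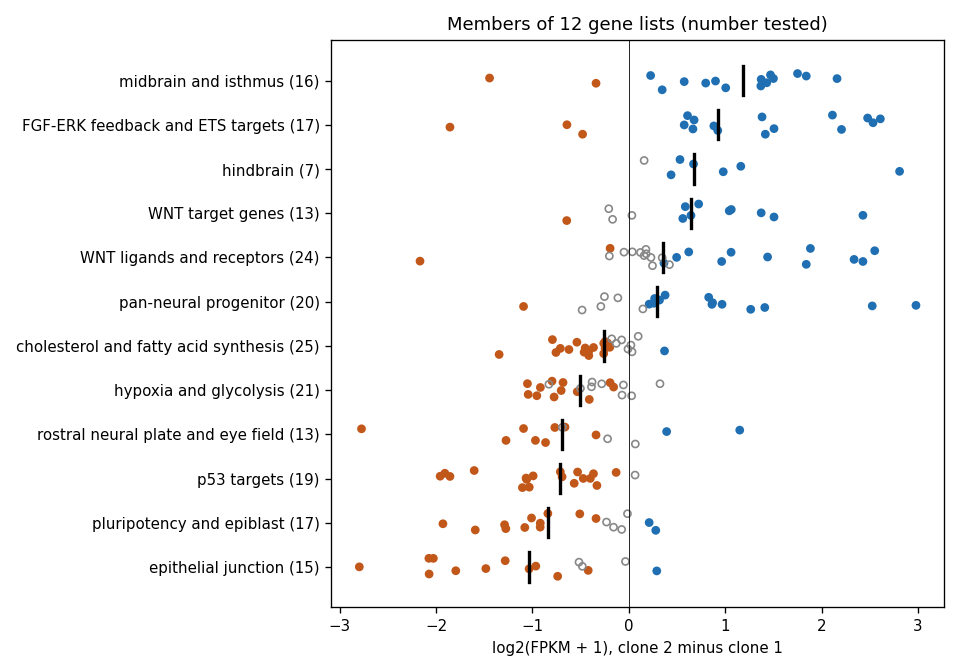
Each point is a tested member of 1 of 12 gene lists (rows, with the number tested), placed by its log2(FPKM + 1) difference of clone 2 minus clone 1. Blue points were higher and orange points lower at an adjusted p of 0.05, open points did not pass, and black bars are list medians, from 1.19 for midbrain and isthmus to -1.04 for epithelial junction.

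Genes of the BMP, Hedgehog and retinoic acid pathways were examined next. Of 13 tested BMP response and dorsal genes among 20, 6 were higher, 1 lower and 6 did not pass, with a median of 0.34. The lower gene, the ligand gene Bmp4 (log2 difference -0.90, adjusted p = 0.045), lost its call without WT replicate 3, WT replicate 4, either clone 1 library or clone 2 replicate 2 (adjusted p = 0.0642 to 0.225), and without clone 2 replicate 1 there were 2 lower. Id3, a BMP-induced inhibitor of helix-loop-helix factors, stood at 67.5 and 74 FPKM in clone 1, 123 and 119 FPKM in clone 2 and 89.9 to 95.2 FPKM in WT (log2 difference 0.77, adjusted p = 8.19e-05). The dorsal homeobox gene Msx3 was at 0.237 and 0.212 FPKM in clone 1, 2.27 and 2.5 FPKM in clone 2 and 0.451 to 1.1 FPKM in WT (log2 difference 1.47, adjusted p = 0.000512), whereas Msx1 did not pass (adjusted p = 0.0908). Of the Hedgehog and ventral list, 4 of 16 genes were tested and all 4 were higher, but 2 were without clone 1 replicate 2 and 2 without clone 2 replicate 2. The Hedgehog effector gene Gli2 (adjusted p = 0.0732 and 0.074) and the ventral homeobox gene Nkx6-1 (0.112 and 0.0902) were those lost, and Nkx6-1 was also lost without clone 2 replicate 1 (0.137) or any 1 of WT replicates 1, 3 and 4 (0.0537 to 0.0601). Among the 4 the receptor gene Ptch1 stood at 4.49 and 3.85 FPKM in clone 1, 6.1 and 7.0 FPKM in clone 2 and 6.05 to 6.36 FPKM in WT (log2 difference 0.55, adjusted p = 0.00232) and Dbx1, of the intermediate neural tube, at 0.928 and 0.517 FPKM in clone 1, 2.85 and 3.92 FPKM in clone 2 and 1.85 to 1.97 FPKM in WT (log2 difference 1.35, adjusted p = 0.000427). Dbx1 reached the filter through clone 2, so it had to be higher and adds nothing to the count of 4.

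In the retinoic acid list, 9 of 17 genes were tested, with 4 higher, 3 lower and 2 not past the threshold. Without clone 1 replicate 2 there was 1 lower, as Rbp4, a retinol carrier gene (adjusted p = 0.102), was lost with Cyp26a1. Cyp26a1, the enzyme that degrades retinoic acid, stood at 25.9 and 26.9 FPKM in clone 1, 10.1 and 2.26 FPKM in clone 2 and 18.4, 29.6, 20.8 and 20.4 FPKM in WT (log2 difference -2.18, adjusted p = 0.0352). The clone 1 libraries lay inside the range of WT, and the clone 2 libraries were below it and far from each other. The call was lost without any 1 of the WT or clone 1 libraries (adjusted p = 0.0527 to 0.106). The receptor gene Rarg was at 23 and 21.9 FPKM in clone 1, 9.6 and 6.82 FPKM in clone 2 and 14.4 to 19.4 FPKM in WT (log2 difference -1.37, adjusted p = 0.000705). The binding proteins Crabp1 (0.49) and Crabp2 (0.50) were higher.

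Neural progenitor genes were mostly higher in clone 2. Of 20 tested pan-neural genes among 21, 14 were higher, 1 lower and 5 did not pass, with a median of 0.30. With median-of-ratios rescaling 4 were lower, without clone 1 replicate 2 there were 3, and without clone 2 replicate 2 there were 2. The blocked fit had 9 higher. Nr2f1, a nuclear receptor of caudal neural territories, stood at 6.79 and 8.55 FPKM in clone 1, 43.3 and 54.6 FPKM in clone 2 and 21.1, 11, 18.3 and 19.6 FPKM in WT (6.38-fold higher, log2 difference 2.52, SE 0.31, adjusted p = 0.00215). The groups did not overlap. Its relative Nr2f2 was at 6.14 and 6.11 FPKM in clone 1, 16.8 and 15.4 FPKM in clone 2 and 11.4 to 12.3 FPKM in WT (log2 difference 1.26, adjusted p = 3.61e-05). Sox21, of the same family as Sox2 and antagonistic to it, stood at 22.3 and 22.5 FPKM in clone 1, 57.3 and 65.2 FPKM in clone 2 and 36.3 to 46.4 FPKM in WT (log2 difference 1.41, adjusted p = 0.000195). Cdh2, neural cadherin, was at 41.3 and 37.5 FPKM in clone 1, 73.4 and 82.4 FPKM in clone 2 and 67, 53.7, 65.1 and 61.3 FPKM in WT (log2 difference 0.97, SE 0.11, adjusted p = 0.000469), so the cadherins Cdh1 and Cdh2 differed in opposite directions between the lines. Sox1, the earliest marker limited to neural cells, stood at 14.8 and 14.5 FPKM in clone 1, 24.6 and 30.4 FPKM in clone 2 and 21 to 23 FPKM in WT (log2 difference 0.86, adjusted p = 0.000418). Sox2, which pluripotent and neural cells share, stood at 138 and 124 FPKM in clone 1, 123 and 119 FPKM in clone 2 and 129 to 140.4 FPKM in WT and did not pass (adjusted p = 0.165).

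Of 13 tested radial glia genes among 16, 5 were higher, 3 lower and 5 did not pass, with a median of 0.04. These are 38.5% higher and 23.1% lower, against 25.3% and 15.2% of all genes tested. Aldh1l1, a folate enzyme of glia, was lower (log2 difference -1.17, adjusted p = 0.00164), and Ptprz1, a receptor phosphatase of radial glia, higher (log2 difference 0.79, adjusted p = 0.00446). Of 15 tested genes of early neurons among 23, 7 were lower, 3 higher and 5 did not pass. The higher ones were 6 without clone 1 replicate 1, 5 without WT replicate 2 and 5 with quantile normalization. Neurog2, a proneural gene, stood at 12.2 and 10.1 FPKM in clone 1, 1.3 and 0.501 FPKM in clone 2 and 2.71, 6.91, 3.25 and 3.06 FPKM in WT (12.4-fold lower in clone 2, log2 difference -2.70, SE 0.40, adjusted p = 0.00337). Clone 1 was above every WT library for Neurog2 and clone 2 below every one. Among genes of differentiating neurons, Gap43 was at 27.9 and 23.8 FPKM in clone 1, 12.6 and 9.24 FPKM in clone 2 and 17.9 to 21.2 FPKM in WT (log2 difference -1.18, adjusted p = 0.000613) and Stmn2 at 35.5 and 34.2 FPKM in clone 1, 23.3 and 17.2 FPKM in clone 2 and 29.7 to 36.8 FPKM in WT (log2 difference -0.77, adjusted p = 0.00407), whereas Map2 (log2 difference 0.43, adjusted p = 0.0671) did not pass. Robo3, an axon-guidance receptor, was among the 15 lowest of all genes, at 21.4 and 23.8 FPKM in clone 1, 2.63 and 1.15 FPKM in clone 2 and 5.3 to 10 FPKM in WT (12-fold lower, adjusted p = 0.00109).

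In the Zic family of zinc-finger genes, Zic1 was higher, and Zic2 (log2 difference -0.77, adjusted p = 0.00511) and Zic5 (log2 difference -1.24, adjusted p = 0.0115) were lower. In the list of neural crest and border genes, 11 of 20 were tested, of which 3 were higher, 4 lower and 4 did not pass. Ets1 (log2 difference -1.09, adjusted p = 0.00628) and Twist1 (log2 difference -0.80, adjusted p = 0.00249) were lower, and both are also expressed outside the crest. Few genes of other lineages reached the filter: 1 of 19 mesoderm genes (Pdgfra, log2 difference 0.87, adjusted p = 0.000335), 4 of 18 endoderm and extraembryonic genes, with 1 higher (Lama1, log2 difference 0.70, adjusted p = 0.00141) and 2 lower (Hhex, log2 difference -1.16, adjusted p = 0.00158, and Apoe, log2 difference -0.60, adjusted p = 0.0151, the latter lost without clone 1 replicate 1 at 0.0629 or clone 2 replicate 2 at 0.0886), and 0 of 12 endothelial and blood genes.

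Targets of the stress-response factor p53 were lower in clone 2 almost throughout. Of 19 tested members of 22, 18 were lower, 0 higher and 1 did not pass, with a median of -0.71, where 15.2% of all genes were lower. Cdkn1a, the cell-cycle inhibitor p21, stood at 72 and 60.5 FPKM in clone 1, 18.5 and 15.3 FPKM in clone 2 and 26.9, 41.7, 29.2 and 31.6 FPKM in WT. WT lay between the clones without overlap, and Cdkn1a was 3.92-fold lower in clone 2 (log2 difference -1.91, SE 0.21, adjusted p = 0.00108). Trp53inp1, a cofactor of p53, was at 102 and 79.4 FPKM in clone 1, 24.4 and 20.7 FPKM in clone 2 and 51.7, 63, 52.8 and 55.1 FPKM in WT (log2 difference -1.96, SE 0.14, adjusted p = 0.000205). Phlda3 was at 74.7 and 73.7 FPKM in clone 1, 21.6 and 18.1 FPKM in clone 2 and 32.5 to 51.1 FPKM in WT (log2 difference -1.86, adjusted p = 0.00149), and the kinase gene Plk2 at 17.5 and 14.2 FPKM in clone 1, 4.27 and 4.76 FPKM in clone 2 and 5.26 to 7.6 FPKM in WT (log2 difference -1.60, adjusted p = 0.0003). The pro-apoptotic genes Bbc3 (-0.99), Pmaip1 (-0.47) and Bax (-0.13) were lower by unequal amounts. Bax lost its call without any library but WT replicate 2 (adjusted p = 0.0554 to 0.181), and Pmaip1 without clone 1 replicate 1 (0.115) or clone 2 replicate 2 (0.176). Mdm2, the ubiquitin ligase that limits p53, stood at 42.5 and 39.2 FPKM in clone 1, 31.5 and 31.4 FPKM in clone 2 and 32 to 33.9 FPKM in WT (log2 difference -0.37, adjusted p = 0.00159). The calls of Sesn1 and Perp, further p53 targets, were not kept in every fit either. Sesn1 (log2 difference -0.33) had an adjusted p of 0.0557 with only the 4 null libraries and 0.0571 in the blocked fit. Without clone 2 replicate 2 its log2 difference was -0.28. Perp, lower by at least 1 in the main fit, had a log2 difference of -0.94 without that library. Ei24 was the member that did not pass (adjusted p = 0.425). For 14 of the 19 members all 4 WT libraries lay between the clones.

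Differences of cell cycle genes were small. Of 23 tested genes, 9 were higher, 4 lower and 10 did not pass, with a median of 0.12. These are 39.1% and 17.4% of the list, where 25.3% and 15.2% of all genes tested were higher and lower, so the share of lower genes was near that of all genes. The higher ones included replication genes such as Tyms, at 55.4 and 58.4 FPKM in clone 1, 95.9 and 107 FPKM in clone 2 and 71.9 to 80.5 FPKM in WT (log2 difference 0.82, adjusted p = 0.000193), Rrm2 (0.51) and Pcna (0.36). The lower ones were the mitotic genes Bub1 (-0.29), Ccnb2 (-0.29), Cdc20 (-0.28) and Aurkb (-0.24). Bub1 lost its call without clone 1 replicate 1 (adjusted p = 0.0648) or clone 2 replicate 2 (0.0988), and Aurkb without clone 1 replicate 2 (0.0506) or clone 2 replicate 1 (0.0714). Mki67, a general marker of cycling cells, did not pass (adjusted p = 0.291). Histone genes, whose messages peak in S phase and lack a poly(A) tail, went the other way from the replication genes: of 48 tested, 24 were lower and 0 higher, with a median of -0.84. Clone 1 replicate 2 held more of such RNA than any other library. Without it 15 histone genes were lower and 1 higher, with a median of -0.42, while without clone 1 replicate 1 it was 46 lower (median -1.38) and without clone 2 replicate 2 it was 13 lower.

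Among metabolic genes, 12 of 21 tested hypoxia and glycolysis genes (of 22) were lower, 0 were higher and 9 did not pass, with a median of -0.50. The glycolytic enzyme gene Aldoa stood at 708 and 701 FPKM in clone 1, 473 and 357 FPKM in clone 2 and 569.7, 651, 526 and 539 FPKM in WT (log2 difference -0.78, adjusted p = 0.0106). The glucose transporter gene Slc2a1 was at 396 and 377 FPKM in clone 1, 297 and 284 FPKM in clone 2 and 330.3 to 367 FPKM in WT (log2 difference -0.41, adjusted p = 0.000767) and phosphofructokinase Pfkl at 173 and 159.6 FPKM in clone 1, 116 and 89.5 FPKM in clone 2 and 134 to 157 FPKM in WT (log2 difference -0.70, adjusted p = 0.00508). Gapdh did not pass (adjusted p = 0.329). This count rested on single libraries too: it was 6 without clone 1 replicate 1, 7 without clone 1 replicate 2, 3 without clone 2 replicate 2 and 7 with only the 4 null libraries. For Aldoa and Bnip3, clone 2 replicate 2 was the lowest of all libraries, and Bnip3 stood at 51.7 and 21.7 FPKM in clone 2. Ndufa4l2, a mitochondrial gene of the hypoxia response among the 15 lowest, was at 9.33 and 8.21 FPKM in clone 1, 1.18 and 0.558 FPKM in clone 2 and 2.34 to 5.11 FPKM in WT (10.1-fold lower, adjusted p = 0.00104).

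Of 25 tested genes of cholesterol and fatty acid synthesis among 26, 17 were lower, 1 higher and 7 did not pass, with a median of -0.26, and without clone 2 replicate 2 there were 11 lower. Dhcr7, which encodes the enzyme of the last step of cholesterol synthesis, was at 94.8 and 94 FPKM in clone 1, 63.6 and 58.5 FPKM in clone 2 and 84.3, 90.7, 86.4 and 90.9 FPKM in WT (log2 difference -0.62, SE 0.06, adjusted p = 0.000229). The clones did not overlap, and both clone 2 libraries were below every WT library. The higher gene was Hsd17b7 (log2 difference 0.37, adjusted p = 0.0105). Without clone 2 replicate 2 its adjusted p was 0.0657. Stress lists were mixed: in the ER stress and amino acid response list 6 of 17 tested genes were higher, led by the chaperone gene Hspa5 (log2 difference 0.49, adjusted p = 0.000384), and 3 lower, with 1 lower without clone 1 replicate 1 or clone 2 replicate 2. The ER stress counts are 35.3% higher and 17.6% lower, and the share of lower genes was near the 15.2% of all genes. In the antioxidant list 5 of 14 were higher and 1 lower, the secreted peroxidase gene Gpx3, at 129 and 176 FPKM in clone 1, 79.4 and 78.5 FPKM in clone 2 and 39.9 to 54.1 FPKM in WT, where 25.3% of all genes were higher and 15.2% lower. The 5 higher ones became 3 without WT replicate 1, 3 or 4, 2 when either clone 1 replicate 2 or clone 2 replicate 1 was left out and 1 when clone 2 replicate 2 was, and with median-of-ratios rescaling or quantile normalization 3 and 2 were higher, each with 2 lower. Of 12 tested immediate early and stress genes, 4 were higher (33.3%) and 2 lower (16.7%, near the 15.2% of all genes). The lower ones were Egr1 and Nr4a1 (-0.26). Nr4a1 lost its call without any library but WT replicate 2 (adjusted p = 0.0675 to 0.204), and 0 were lower without WT replicate 3, WT replicate 4, clone 1 replicate 1 or clone 2 replicate 1.

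Imprinted genes, expressed from a single parental allele, differed gene by gene. Of 22 tested among 30, 10 were higher, 6 lower and 6 did not pass, with a median of 0.02. Grb10, an adaptor that restrains insulin signalling, stood at 14.6 and 9.89 FPKM in clone 1, 86.3 and 79.4 FPKM in clone 2 and 76.7, 77.9, 75.6 and 76 FPKM in WT (6.75-fold higher, log2 difference 2.68, SE 0.14, adjusted p = 8.19e-05). Clone 2 was near the WT libraries and clone 1 was far below them. Mest stood at 141 and 128 FPKM in clone 1, 400.3 and 439.8 FPKM in clone 2 and 311, 260.2, 306 and 301 FPKM in WT (log2 difference 1.64, SE 0.09, adjusted p = 6.41e-05), with WT between the clones. Peg3 was at 13.1 and 10.7 FPKM in clone 1, 33.7 and 42.6 FPKM in clone 2 and 14.9 to 19.5 FPKM in WT (log2 difference 1.60, adjusted p = 0.000351), where clone 2 was above every WT library and clone 1 below. Ndn (0.91), Magel2 (1.11), Mkrn3 (0.56) and Snrpn (0.32), which lie in the same cluster on chromosome 7, were all higher. On chromosome 12, Dlk1 was higher (1.39) while the neighbouring noncoding genes Meg3 (-0.61), Rian (-0.34) and Mirg (-0.49) were lower. Phlda2 was lower, at 9.37 and 9.43 FPKM in clone 1, 2.21 and 2.96 FPKM in clone 2 and 3.27 to 5.31 FPKM in WT (log2 difference -1.54, adjusted p = 0.000562). Peg10 was listed at 0 in clone 2 replicate 1 and at 60.1 FPKM in clone 2 replicate 2, so no mean is given.

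Several of the largest differences were at single genes. The Y-linked genes Eif2s3y, Ddx3y and Uty were all but absent from clone 2. Eif2s3y, a translation factor subunit, stood at 60.4 and 50.3 FPKM in clone 1, 0.141 and 0.184 FPKM in clone 2 and 23.1, 25.1, 24.8 and 24 FPKM in WT (log2 difference -5.59, SE 0.09, adjusted p = 2.79e-09). Its clone 1 level was 2.28 times the WT mean, and those of Ddx3y and Uty were 2.15 and 2.34 times. Ddx3y was at 14 and 11.1 FPKM in clone 1 and 0.0922 and 0.0871 FPKM in clone 2, and Uty at 13.9 and 11.4 and 0.155 and 0.159 FPKM. All 3 have similar copies on the X chromosome, so the split of shared reads between copies is uncertain. Ccn2, a secreted matrix protein and target of the YAP pathway, stood at 1.13 and 1.35 FPKM in clone 1, 15.7 and 15.5 FPKM in clone 2 and 7.71, 5.3, 7.75 and 7.02 FPKM in WT (12.6-fold higher, log2 difference 2.89, SE 0.15, adjusted p = 1.85e-05). The groups of Ccn2 did not overlap. Of the 15 tested YAP and TEAD targets 2, Ccn2 and Fstl1 (0.24), were higher and Ptpn14 (-0.68) was lower. These are 13.3% and 6.67% of the list, both below the 25.3% and 15.2% of all genes tested. Without clone 1 replicate 1, 7 of the 15 were higher, without clone 2 replicate 2 there were 4 higher and 0 lower, and without clone 2 replicate 1 there was 1 higher and 2 were lower. Without clone 2 replicate 1 the adjusted p of Fstl1 was 0.0525, and without clone 2 replicate 2 that of Ptpn14 was 0.0719.

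The remaining genes among the 15 highest were Myo5b, a motor of membrane recycling (3.43 and 3.36 FPKM in clone 1, 21.4 and 32.5 FPKM in clone 2), Adgrg1, an adhesion receptor of neural progenitors (3.3 and 3.48 against 20.7 and 28.7 FPKM), and Selenos, a selenoprotein of the endoplasmic reticulum (67.7 and 108 against 521 and 464 FPKM). Selenos lost its call without clone 2 replicate 2 (adjusted p = 0.051) and under the block (0.16). Among the 15 lowest, Ms4a4d stood at 14.7 and 13.8 against 2.51 and 1.07 FPKM, Ppp1r14a, an inhibitor of myosin phosphatase, at 12.9 and 12.2 against 2.35 and 0.973 FPKM, and Ndrg2 at 7.21 and 5.81 against 0.800 and 0.402 FPKM. For these 6 genes the WT mean lay between the clone means.

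An exact 0 in these files can be a failed estimate, and 320 of the genes tested had a 0 in any null library, of which 18 were called. Ktn1, which encodes kinectin, stood at 84.9 and 72.8 FPKM in clone 1 and 80.4, 85.4, 86.7 and 84.4 FPKM in WT but had a listed value of 0 in clone 2, in both libraries. In the authors' deposited table its mean reads were 9269 in WT and 8874 in null. The null mean, which covers both clones, thus stood near that of WT, and the 0 in clone 2 is not read as absent RNA. Ktn1 is nevertheless among the 521 genes, as are all 18 called genes with such a 0. The short RNAs Mir92-2 (138 and 138 FPKM in clone 1) and Mir1957b (31.2 and 21.5 FPKM) were likewise listed at 0 in clone 2. Snora28 was at 0 in clone 1 and 27 and 35.8 FPKM in clone 2. The authors' mean reads were 40.7 in WT and 39.9 in null for Mir92-2, and 66.7 and 74.9 for Snora28. For Mir1957b they were 0 in both, so its clone 1 FPKM had no mean reads beside it. These differences are not read as differences in RNA. The Snora28 call was lost when any of the 4 null libraries, WT replicate 2 or WT replicate 3 was left out (adjusted p = 0.0679 to 0.156). No fold is given for these 4 genes.

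The difference was also scanned along the chromosomes, in 11250 windows of 25 neighbouring tested protein-coding genes. In 92 windows the median exceeded 0.4 in size, 45 on chromosome 4 and 47 over the histone cluster of chromosome 13, and no window elsewhere exceeded 0.34. The stretch of chromosome 4 from Rab2a to Epha7 (8535644 to 28967499, GRCm38) held 46 tested genes with a median of -0.73, of which 41 were lower and 1 higher in clone 2, while the other 722 genes of the chromosome had a median of 0.06. The median difference from WT there was -0.59 in clone 2 and 0.17 in clone 1. Esrp1 (-2.07), Trp53inp1 (-1.96) and Epha7 (-0.49), of the epithelial, p53 and axon guidance lists, lie within that stretch and were lower with it. The cyclin gene Ccne2 of the cell cycle list lies there too, but its log2 difference was 0.27, against the direction of the stretch.

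The WT libraries were then placed on the axis from clone 1 to clone 2. The size of the difference between the clones does not use their levels, but their spread entered the variance of the fit, and leaving out 1 of them gave 512 to 522 genes in place of the 521. For each of the 521 genes a library's position was 0 at the mean of clone 1 and 1 at the mean of clone 2, on the log2(FPKM + 1) scale. The WT mean lay between the clone means for 500 genes, beyond clone 1 for 12 and beyond clone 2 for 9. It was between 0.25 and 0.75 for 412 genes, between 0 and 0.25 for 54 and between 0.75 and 1 for 34. For 402 of the 521 all 4 WT libraries lay between all the clone 1 and all the clone 2 libraries. Genes picked for a wide gap between a pair of groups tend to have any other group inside it, so these counts are a description.

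The WT libraries were themselves spread along the same axis. Their median positions were 0.59, 0.30, 0.54 and 0.50 for WT replicates 1 to 4. WT replicate 2 was the WT library nearest to clone 1 for 449 of the 521 genes, against 29, 21 and 22 for the other three. Nearest to clone 2 was WT replicate 1 for 313 genes, replicate 3 for 133, replicate 4 for 61 and replicate 2 for 14. Hesx1, Foxd4, Neurog2, Pou5f1, Cdh1 and Cdkn1a were highest, and Gbx2, Zic1, Fabp7, Wnt1, Wnt3a and Dusp6 lowest, in WT replicate 2 among the WT libraries. Within the clones, clone 2 replicate 2 was farther from clone 1 than its partner for 462 of the 521 genes, and clone 1 replicate 1 was farther from clone 2 than its partner for 319.

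**Figure D4:**
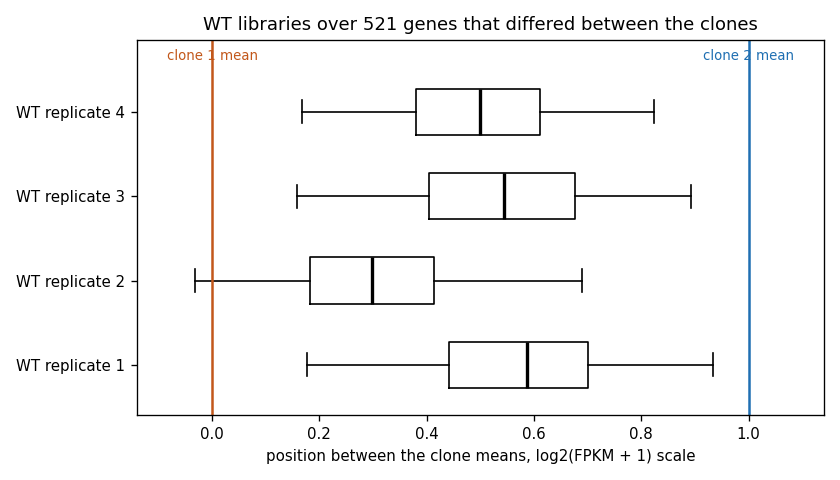
Position of each WT library between the clone means (x axis, 0 is the clone 1 mean and 1 the clone 2 mean, log2(FPKM + 1) scale) over the 521 genes. Boxes span the middle of the genes from the lower to the upper quartile, thick lines are medians and whiskers reach the 5th and 95th percentiles, and WT replicate 2 (median 0.30) sits nearer to clone 1 than the others (0.50 to 0.59).

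In a few genes WT lay beyond a clone or at its level, and for Thumpd1 it lay between the clones but close to clone 2. Pax6, with WT above clone 1, has been given. Chst15, a sulfotransferase of the matrix, stood at 7.7 and 6.15 FPKM in clone 1, 3.36 and 1.73 FPKM in clone 2 and 7.84 to 10.6 FPKM in WT (log2 difference -1.19, adjusted p = 0.00448), also with WT beyond clone 1. Dppa4 and Cldn6 had WT at the level of clone 2, with Dppa4 at 7.1 and 5.68 FPKM in clone 1, 3.23 and 2.16 FPKM in clone 2 and 2.39 to 2.98 FPKM in WT and Cldn6 at 9.73 and 8.98 FPKM in clone 1, 3.74 and 2.81 FPKM in clone 2 and 2.32 to 3.88 FPKM in WT. For Thumpd1, an RNA-modification cofactor, clone 1 alone was far from the rest, at 20.9 and 20.8 FPKM in clone 1, 43.2 and 44.6 FPKM in clone 2 and 41.2, 42.9, 41.7 and 41.5 FPKM in WT (log2 difference 1.04, adjusted p = 7.73e-06). These genes were chosen after their values were seen.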

How the data were processed

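Poly(A) RNA libraries of 4 WT, 2 clone 1 and 2 clone 2 samples were used. The authors deposited an FPKM value for each gene and library, as the file headers state. TopHat2, Cufflinks, DESeq2, SAMtools and FastQC are listed in the submitters' processing notes with no version or role, beside mm10 and GRCm38 as builds. Whether counting used strand is not stated, so overlapping and antisense genes are uncertain. The deposited table also holds the authors' mean reads per genotype, a signal whose scaling is not stated (26693189 in WT and 26864352 in null when summed), their fold, which is a ratio of these means, and a p-value with no stated test. The last 2 were not used.

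Samples were grouped by the labels' titles and cell lines. Numbers in the null columns restart in each clone, so a column was matched to a clone, and to no title. With FPKM rather than counts for single libraries, a linear model (limma 3.58.1, R 4.3.3) was fitted with trend and robust moderation to log2(FPKM + 1) of all 8 libraries in 3 groups, which leaves 5 residual degrees of freedom. Benjamini-Hochberg adjustment ran over the 14474 genes that reached a mean of 1 FPKM in the 4 null libraries, and the threshold was 0.05. The script was tested on simulated data. Gene coordinates came from GENCODE M21, which held 45900 of the 46406 identifiers.

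The members and the 39 gene lists were chosen with earlier results of these data known. Named genes were Lhx5, the 6 markers, the 15 highest and 15 lowest differences past the threshold with a standard symbol and no overlap between the clones, and up to 4 members of each list past the threshold by adjusted p. Other list members, and Zeb1, Zeb2, Chst15 and Thumpd1, were named after their values were seen. Alternatives were other pseudocounts (0.1 and 5), filters, scalings and variance settings, the 4 null libraries alone, a replicate block and each library left out. Some genes of the lists are not reported here.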

Additional observations from a re-analysis of the deposited data

Results flagged for a closer look

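For 3 genes, WT replicate 2 stood far above the other WT libraries by Dixon's test at the 95% level, among 32 named genes checked. Foxd4 was at 35.6 FPKM there against 22.6 to 24.8 FPKM in the other WT libraries. Hesx1 was at 36.7 FPKM against 21.7 to 24.1 FPKM. Neurog2 was at 6.91 FPKM against 2.71 to 3.25 FPKM. By chance alone such a test flags about 5% of groups. All 3 genes were lower in clone 2 than in clone 1, and in this library their levels were the nearest of the WT libraries to clone 1.

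For 402 of the 521 genes with a log2 difference of at least 1, both clone 1 libraries lay on the opposite side of all 4 WT libraries from both clone 2 libraries. These genes were chosen for their gap between the clones, and genes with such a gap tend to have any other group inside it, so the count is a description and no test of a departure from WT was made. The difference was not tested apart from the choice of the genes.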

How the results depend on the processing

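The number of genes past the threshold, 5862, was 3754 with only the 4 null libraries in the fit, 3752 with a replicate block (3614 of them shared with the 5862) and between 3185 (without clone 2 replicate 2) and 6005 (without clone 1 replicate 1) when each library was left out in turn. The library numbers in the headers gave a correlation of -0.086 between the clones for the difference of replicate 1 and replicate 2, so the clones share only a number and the block is no pairing of samples. A lone library left in a clone is assumed to vary like the other groups. The 521 genes with a log2 difference of at least 1 became 864 with a pseudocount of 0.1, 167 with a pseudocount of 5 and 303 with a minimum mean FPKM of 5, where fewer genes were tested. The log2 difference of Lhx5 was 0.43 with quantile normalization, where it passed the threshold (adjusted p = 0.0317), and ranged from 0.15 to 0.51 when each library was left out. Of 149 named genes 147 passed, of which 123 did so under all 17 alternatives, 24 lost the call under some and 0 changed direction. The fit of only the null libraries lost 14 and the one without clone 2 replicate 2 also 14, among them in one or the other Hesx1, Foxd4, Pax6, Aldoa, Zic5, Emx2, Lmo1, Kremen1, Apoe, Car12 and Selenos. These counts cover only the genes named by rule. Six3, Rax, Fezf1, Cyp26a1, Barhl1, Pax5, Bmp4, Egr1, Nr4a1, Bax, Lrp5 and Shisa2, named after their values were seen, are not among the 149. They lost their calls under some alternatives too. The cause of these changes was not tested. Depth per library is unknown, so no counting error is given.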

Other observations

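Genes of axon guidance steer growing axons by attraction and repulsion. Of 23 tested among 29, 14 were higher, 4 lower and 5 did not pass, with a median log2 difference of 0.27, where 25.3% of all tested genes were higher and 15.2% lower. Epha7, an ephrin receptor gene among the lower ones, lost its call without any 1 of 4 libraries (adjusted p = 0.0622 to 0.219). There were 9 higher without clone 1 replicate 2 or clone 2 replicate 2, and 1 lower without clone 1 replicate 1 or clone 2 replicate 2. The ephrin ligand gene Efnb3 stood at 17.5 and 17 FPKM in clone 1, 51.9 and 62 FPKM in clone 2 and 28.7 to 37.8 FPKM in WT (log2 difference 1.66, adjusted p = 0.000206), and Efnb1 at 8.38 and 8.94 FPKM in clone 1, 21.9 and 26.8 FPKM in clone 2 and 12.8 to 16 FPKM in WT (log2 difference 1.39, adjusted p = 0.000203). Nrp2, a receptor for semaphorins, was at 3.31 and 3.2 FPKM in clone 1, 12.8 and 13.1 FPKM in clone 2 and 5.54 to 8.8 FPKM in WT (log2 difference 1.71, adjusted p = 0.000378). Of 16 tested extracellular matrix genes among 22, 6 were higher and 2 lower, with a median of -0.01, and the lower ones numbered 1 without any 1 of 6 libraries and 4 without clone 1 replicate 2. Col2a1, a fibrillar collagen also made by early neural tissue, stood at 15.3 and 14.4 FPKM in clone 1, 48.1 and 62.4 FPKM in clone 2 and 18.5 to 30.4 FPKM in WT (log2 difference 1.82, adjusted p = 0.00279), and fibronectin (Fn1) at 31.6 and 25.2 FPKM in clone 1, 50.6 and 51.7 FPKM in clone 2 and 38.8 to 46.2 FPKM in WT (log2 difference 0.84, adjusted p = 0.000793). The matrix glycoprotein gene Thbs1 was at 33.8 and 27 FPKM in clone 1, 59.7 and 55.4 FPKM in clone 2 and 78.7 to 90.1 FPKM in WT (log2 difference 0.91, adjusted p = 0.000695), so both clones were below WT.

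All 8 tested carbonic anhydrase genes of 14, which interconvert carbon dioxide and bicarbonate, passed, 4 higher and 4 lower, but without clone 2 replicate 2, 2 were lower, as Car12 (adjusted p = 0.0511) and Car9 (0.084) were lost. Car9 was also lost without clone 1 replicate 2 (0.0941). Besides Car3, Car2 was at 3.64 and 3.11 FPKM in clone 1, 7.45 and 8.13 FPKM in clone 2 and 4.5 to 4.86 FPKM in WT (log2 difference 1.01, adjusted p = 0.000229) and Car4 at 8.98 and 7.77 FPKM in clone 1, 4.44 and 2.4 FPKM in clone 2 and 3.92 to 6.13 FPKM in WT (log2 difference -1.12, adjusted p = 0.00748). Of 34 tested genes of Polycomb complexes and DNA methylation, 12 were higher, 6 lower and 16 did not pass, with a median of 0.06. These are 35.3% and 17.6% of the list, against 25.3% and 15.2% of all genes, so the share of lower genes was near that of all genes. Subunits that can replace each other in Polycomb complex 1 went opposite ways: Cbx7, of stem cells, stood at 22.3 and 19.5 FPKM in clone 1, 9.48 and 8.13 FPKM in clone 2 and 11.1 to 14.8 FPKM in WT (log2 difference -1.16, adjusted p = 0.000418), and Cbx2 at 42.5 and 40.3 FPKM in clone 1, 58.4 and 63.6 FPKM in clone 2 and 48.5 to 55.7 FPKM in WT (log2 difference 0.55, adjusted p = 0.000863). Of the methyltransferases of Polycomb complex 2, Ezh1 was lower (log2 difference -0.82, adjusted p = 0.00208) and Ezh2 slightly higher (log2 difference 0.21, adjusted p = 0.00747), which was lost without clone 2 replicate 2 (adjusted p = 0.0606) and with median-of-ratios rescaling (0.0573). Of 10 tested LIM homeobox genes and cofactors among 20, 4 were higher and 1 lower. With median-of-ratios rescaling 2 were higher, as Ldb1 (adjusted p = 0.0807) and Ssbp3 (0.111) were lost. Without clone 2 replicate 1 there were 3 lower. The lower one, Lmo1, had an adjusted p of 0.0544 to 0.0831 without either clone 1 library or clone 2 replicate 2. Lmx1b stood at 34.1 and 31.2 FPKM in clone 1, 42.3 and 41.2 FPKM in clone 2 and 25.8 to 28.4 FPKM in WT (log2 difference 0.35, adjusted p = 0.00358), above WT in both clones. Of 9 tested small RNAs without a poly(A) tail, 0 passed in limma and 0 had an unadjusted p under 0.05. Rn7sk was at 8.05 and 250.2 FPKM in clone 1, 17.5 and 12.7 FPKM in clone 2 and 8.4 to 28.4 FPKM in WT, and Rmrp at 1.58 and 112 FPKM in clone 1, 4.44 and 1.93 FPKM in clone 2 and 1.03 to 7.62 FPKM in WT, so the high library was clone 1 replicate 2. Without clone 1 replicate 1, which leaves that library alone in its clone, 7 of the 9 were lower in clone 2 (adjusted p = 0.00152 to 0.0284), and without clone 1 replicate 2 it was 0.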
